A study of Mus musculus with 24 samples.

Results

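Short open reading frames (ORFs) that are the sole ORF listed on their transcript are described here in mouse liver. A member is a row of the ORF table that is the only row of its transcript and whose span, from its first to its last position, is at most 101 codons. The rule used no measured level. It took 2238 of the 22590 ORFs in the table (9.91%), on as many transcripts out of 21008. A further 17356 ORFs were alone on their transcript but longer, and 1614 ORFs were as short but shared their transcript with another ORF.

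The values came from ribosome profiling, in which the stretches of mRNA covered by ribosomes are sequenced and each footprint is placed at the codon in the ribosome's P-site, so that each count is a P-site. All 24 livers were from male F1 hybrids of C57BL6J and FVBN mice, housed individually, with 6 groups of 4 libraries. The wild-type (Ercc1 +/+) groups were fed ad libitum (AL) and taken at 16 weeks, fed AL and taken at 104 weeks, or kept on 30% dietary restriction (DR) and taken at 16 weeks. The Ercc1 d/- groups (mice with a null and a truncated allele of this DNA repair gene) were fed AL and taken at 7 weeks, fed AL and taken at 16 weeks, or kept on 30% DR and taken at 16 weeks. DR began at 7 weeks with 10% less food and reached 30% at 9 weeks. No group received food on the day of collection, and all lysates held cycloheximide, which stalls elongating ribosomes. The labels number the livers within a group and say nothing further of their independence, so the p-values measure the spread between these libraries.

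Ribosomes start on an mRNA, read codons until a stop codon, and so leave footprints that mark which stretch is translated and how densely. Short ORFs encode small proteins, among them secreted peptides, metal-binding proteins, ribosomal proteins and subunits of the mitochondrial respiratory chain, or lie on transcripts annotated as noncoding or as partial isoforms. In liver, small secreted proteins such as apolipoproteins and the iron hormone hepcidin are made in large amounts by hepatocytes.

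The ORF table names transcripts and positions and pairs no transcript with a gene, and the sequences of the ORFs were not used here. Members are therefore called by their length and their start on the transcript. As an aid, each member with at least 200 P-sites was set against all rows of the gene table, and a gene row was called the single closest row where the log2 ratio of member to gene row, across the 24 libraries, had an SD of at most 0.6, the levels lay within a ratio of 0.67 to 1.5, and every other gene row, at any level, had an SD at least 1.5 times as large. This rule was chosen after the data were seen. It describes a likeness of counts from the same libraries and does not identify the gene. Of 1159 members with enough P-sites, 74 had a single closest row, of 73 genes; they held 31.5% of all member P-sites, and their SDs ran from 0.0832 to 0.572 with a median of 0.146.

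Members were 9 positions to 101 codons long, with a median of 174 and quartiles of 111 and 237. All 2238 lengths were multiples of 3, and 461 members were under 100 positions long. Whether a length includes the stop codon is not given in the sources used here. Members started at a median position of 141 on their transcript (quartiles 61.2 and 309), against 163 for the longer ORFs alone on theirs. In 74 members (3.31%) the start lay at position 1 to 3, close to the 3.06% of all other ORFs, and 99 members started beyond position 1000.

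Members held fewer P-sites than other ORFs but about as many per base. A member held a median of 221 P-sites over the 24 libraries, with a range of 2 to 799322, against a median of 1920 for all other ORFs. Levels are P-sites per 1000000 (CPM) of a library's P-sites on ORFs that passed a filter on low counts, with that total scaled by a normalization factor. The median member had 3.7 CPM per kilobase. The median was 3.6 for all other ORFs, 3.78 for the longer ORFs alone on their transcript and 3.1 for the short ORFs that share one. A P-site was counted in all 24 libraries for 1245 members. Mean levels reached 1 CPM in 854 members, 10 CPM in 224, 100 CPM in 30 and 1000 CPM in 2. At matched depth members varied about as much between livers of a group as other ORFs did: the median SD of log2 levels was 0.548 for members and for others from 200 to under 1000 P-sites, 0.38 against 0.348 from 1000 to under 5000, and 0.258 against 0.242 at 5000 and over.

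Just inside the length limit, at 300 positions and at the limit itself, lay 52 ORFs with a median of 626 P-sites, of which 43 were tested. Just outside it, at 306 and 309 positions, lay another 52 that were alone on their transcript, with a median of 1799 P-sites, of which 39 were tested. Some members were not independent of other ORFs. Among the 549 members with at least 1000 P-sites, 68 differed by at most 10 percent of their P-sites, summed over libraries, from another ORF, and 33 from another member, and 18 of all members had the same counts as another member.

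Total ORF P-sites ran from 8562294 to 27241137 per library and gene counts from 13366558 to 27084259. The Ercc1 gene row held 34 to 110 counts in the 12 wild-type libraries and 1 to 15 in the 12 Ercc1 d/- libraries. All 6 hepatocyte markers looked up were found, with a summed level of 93914 to 230921 CPM. No libraries were identical.

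The P-sites were concentrated on few members. The member with the most held 9.73% of the 8218978 member P-sites, the first 2 held 18.7%, the first 5 held 29.7%, the first 10 held 41.1% and the first 100 held 76.8%. The first 2 members had the gene rows of Apoc1 and Hamp as their single closest rows.

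The 264-position ORF starting at 171 held 799322 P-sites, and its closest row was Apoc1 (SD 0.102), an apolipoprotein of circulating lipoprotein particles. Its level was 2064, 2311, 1943 and 2340 CPM in the fed 16-week wild type and 1481, 1909, 2397 and 2800 CPM under DR. The Ercc1 d/- livers had 1702, 1745, 1994 and 1669 CPM in the fed 16-week group and 1192, 1628, 1409 and 1566 CPM under DR. The restricted genotypes overlapped in range, and the member was lower in Ercc1 d/- by edgeR's quasi-likelihood test with Benjamini-Hochberg adjustment over all ORFs (log2 difference -0.57, SE 0.17, adjusted p = 0.0209); the call was lost without restricted wild-type replicate 3 or 4 or restricted Ercc1 d/- replicate 1, with only the compared libraries fitted and with a trend over ORF length removed. The fed genotypes did not pass (log2 -0.28, SE 0.17, adjusted p = 0.338).

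The 252-position ORF starting at 47, closest to Hamp (SD 0.0952), held 737138 P-sites. Hamp encodes hepcidin, the hormone that lowers iron export into blood. Mean levels were 1636 ± 102 CPM (SD, n = 4) in the fed 16-week wild type, 2089 ± 816 at 104 weeks and 2496 ± 420 under DR, and in Ercc1 d/- they were 842 ± 258 at 7 weeks, 1341 ± 47.8 at 16 weeks and 1731 ± 189 under DR. The libraries did not overlap between 7 and 16 weeks, between fed and restricted livers of either genotype, or between genotypes on either diet. No contrast passed the test, the nearest being DR in the wild type (log2 0.61, SE 0.22, adjusted p = 0.0689). Another 252-position ORF, also starting at 47, had no single closest row, with Hamp2 and Hamp as its nearest rows; these paralogs are near copies and reads may be split between them. It was 997 ± 216 CPM in restricted wild-type livers and 457 ± 47.9 CPM in restricted Ercc1 d/- livers, without overlap (log2 -1.12, SE 0.32, adjusted p = 0.0188), a call lost with the length trend removed.

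The 177-position ORF starting at 400 and the 174-position ORF starting at 236 complete the 5 with the most P-sites, with 345899 and 292673. The 174-position ORF measured 683 ± 30.1 CPM (SD, n = 4) in the fed 16-week wild type and 724 ± 66.9 CPM in the fed 16-week Ercc1 d/- livers. At 104 weeks it was 410, 470, 471 and 391 CPM, below every fed 16-week wild-type library (log2 -0.65, SE 0.12, adjusted p = 0.000762). The 177-position ORF, which changed most, is described with DR.

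Together the members took 1.89% of the 434552623 ORF P-sites. The share was 2.03% ± 0.114 (SD, n = 4) in the fed 16-week wild type, 2.08% ± 0.128 at 104 weeks and 1.96% ± 0.0739 under DR. In Ercc1 d/- livers it was 1.77% ± 0.0702 at 7 weeks, 1.83% ± 0.0751 at 16 weeks and 1.73% ± 0.0807 under DR. The 4 restricted Ercc1 d/- libraries, at 1.62% to 1.81%, all lay below the 4 restricted wild-type libraries, at 1.88% to 2.06%, while the fed 16-week genotypes met at 1.76% to 1.94% against 1.89% to 2.16%. Without the 5 members with the most P-sites the fed 16-week means were 1.36% in both genotypes and the restricted means 1.31% and 1.25%.

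**Figure D1:**
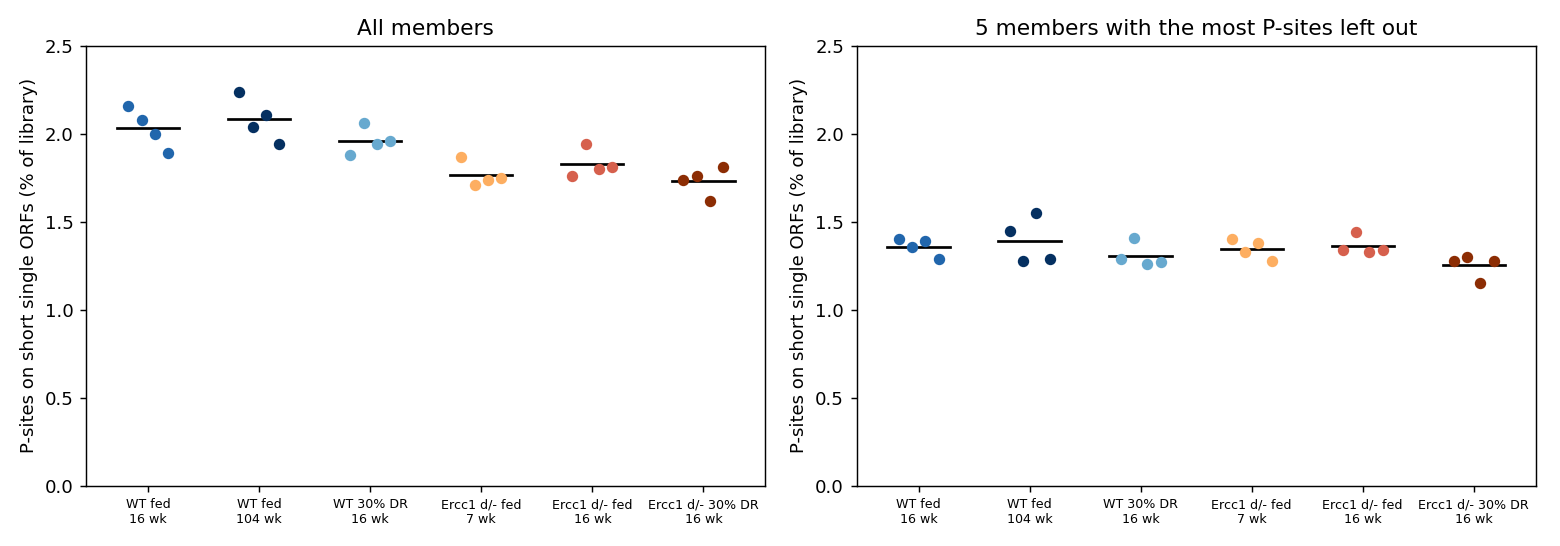
Share of each library's ORF P-sites that fell on the short ORFs alone on their transcript (y axis, percent), by group, with all members at left and with the 5 members with the most P-sites left out at right. Points are libraries and bars are group means; with all members the means run from 1.73% to 2.08%, and without the 5 they run from 1.25% to 1.39%.

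Of the 2238 members, 1296 (57.9%) passed the filter on low counts, against 83.8% of other ORFs, and 942 were not tested. All 18344 ORFs that passed were fitted in a single model. The counts of members below are of those tested and are set beside the share of all tested ORFs called in the same direction at an adjusted p under 0.05. Members have fewer reads than other ORFs, and fewer of them could pass. Across the 6 pairwise contrasts 401 members (30.9%) were called at least once and 36 (2.78%) in at least 3 contrasts, against 34.6% and 4.26% of all tested ORFs. None of the members was called in 5 or 6 contrasts, as 42 of all tested ORFs (0.229%) were, and 895 members were called in none.

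Between fed 16-week genotypes, 28 members were higher in Ercc1 d/- and 45 lower (2.16% and 3.47% of those tested), against 5.03% and 4.12% of all tested ORFs. The median log2 difference was -0.115 over members and 0.009 over all tested ORFs. Between 104 and 16 weeks in the fed wild type, 14 members rose and 40 fell (1.08% and 3.09%), against 4.12% and 4.19%, with medians of -0.091 and 0.009. Between 16 and 7 weeks in fed Ercc1 d/- livers, 2 members rose and 2 fell (0.154% each), against 0.283% and 0.191%.

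DR raised 56 members and lowered 43 in the wild type (4.32% and 3.32%), against 5.51% and 5.3% of all tested ORFs. In Ercc1 d/- livers it raised 45 and lowered 103 (3.47% and 7.95%), against 4.7% and 5.08%, and the member median was -0.196 against 0.002. Between restricted genotypes, 51 members were higher in Ercc1 d/- and 181 lower (3.94% and 14.0%), against 8.54% and 8.43%, with medians of -0.267 and -0.019. The test of whether DR acted differently in the genotypes, the interaction, called 2 members upward and 4 downward (0.154% and 0.309%), against 0.403% and 0.251%. These contrasts share groups with each other, so their counts are not independent.

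**Figure D2:**
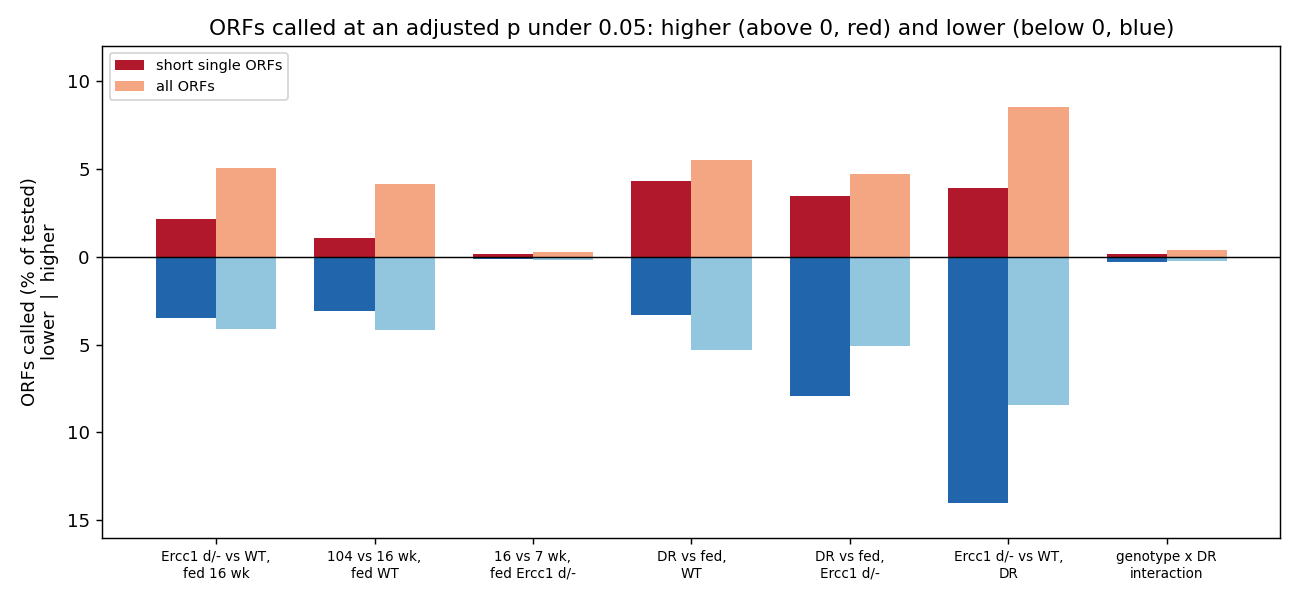
Percent of ORFs called higher (above 0) and lower (below 0) at an adjusted p under 0.05 in each of the 7 contrasts, for the 1296 short single ORFs tested (dark bars) and all 18344 ORFs tested (light bars). The largest bar of the short ORFs is the 14.0% that were lower in restricted Ercc1 d/- than in restricted wild-type livers, where the share of all ORFs was 8.43%.

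The lean toward lower values differed by length between restricted genotypes, also in ORFs that are no members. There, members under 100 positions long had a median log2 difference of -0.544, and the median rose through -0.319, -0.235 and -0.228 to -0.163 in members over 250 positions. Longer ORFs alone on their transcript carried on from there: the median was -0.144 at 304 to 606 positions, -0.047 at 607 to 1200 and 0.071 beyond 1200. Short ORFs that share a transcript had medians of -0.668, -0.379, -0.412, -0.253 and -0.262 in the same 5 length classes as the members. For DR in Ercc1 d/- livers the member classes ran from -0.336 to -0.142, and for fed genotypes from -0.271 to -0.059. For DR in the wild type they also rose with length, at -0.143, -0.13, -0.068, -0.053 and 0.001. With age in Ercc1 d/- livers they were -0.095, -0.139, -0.031, -0.031 and -0.025. With age in the wild type the shortest class had the lowest median (-0.221), but the others did not rise with length, at -0.025, -0.079, -0.093 and -0.108. Among members with at least 1000 P-sites the medians between restricted genotypes were -0.567, -0.113, -0.221, -0.221 and -0.179, the lowest again in the shortest class (35 members). For DR in Ercc1 d/- livers the same deeper members gave -0.204, 0.046, -0.19, -0.149 and -0.149, with no steady order. For DR in the wild type they gave 0.055, 0.004, -0.035, 0.023 and 0.026, again with no steady order.

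**Figure D3:**
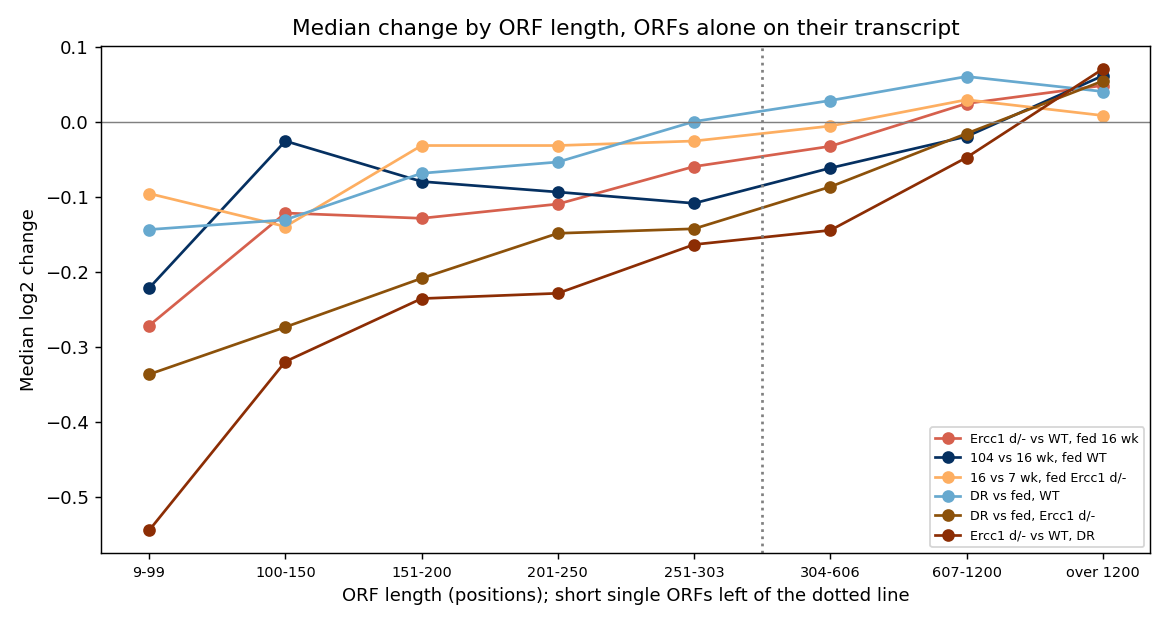
Median log2 difference by ORF length class in the 6 pairwise contrasts, over tested ORFs alone on their transcript; the members lie left of the dotted line. Between restricted genotypes the median climbs from -0.544 in the shortest class to 0.071 in ORFs over 1200 positions.

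Per library, the median log2 deviation of members from their own mean level, minus that of ORFs over 1200 positions, was 0.117 to 0.155 in the fed 16-week wild type and -0.292 to -0.124 in restricted Ercc1 d/- livers, below all 20 other libraries. The restricted wild type spanned -0.0689 to 0.286, and its replicate 3 was the highest of all 24 libraries. The values were -0.0802 to 0.0758 in the 104-week wild type, and -0.0157 to 0.108 and -0.108 to 0.0733 in fed 7-week and 16-week Ercc1 d/- livers. When a smooth trend with length was taken out of each library, an alternative chosen after seeing the data, the split turned from 51 higher and 181 lower to 100 and 70 between restricted genotypes, from 45 and 103 to 83 and 55 for DR in Ercc1 d/-, and from 28 and 45 to 41 and 25 between fed genotypes. Members were picked by length, so this step takes out any shift that short ORFs share. A move of the split away from lower values follows from the step itself. Single calls lost in this fit carry the same limit. The shares higher and lower were then 7.72% and 5.4% of members against 8.06% and 7.92% of all tested ORFs between restricted genotypes. They were 6.4% and 4.24% against 4.65% and 4.64% for DR in Ercc1 d/-, and 3.16% and 1.93% against 4.81% and 4.32% between fed genotypes. The split became 17 and 29 for age in the wild type, 63 and 39 for DR in the wild type, 4 and 1 for age in Ercc1 d/- and 3 and 3 for the interaction, where the shares of all tested ORFs were 3.79% and 4.07%, 5.5% and 5.34%, 0.289% and 0.185%, and 0.414% and 0.283%. Whether the length trend arises in the animals or in library preparation was not tested.

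The genotype moved some members by more than 10-fold. The strongest rises between fed genotypes were in 2 members that were almost silent in wild-type livers. The 243-position ORF starting at 71 (transcript and positions ENSMUST00000024827_71_313) had Tff3 as its single closest row (SD 0.554), a trefoil peptide secreted by mucous epithelia. It had 2, 5, 7 and 4 P-sites in the fed 16-week wild type and 129, 70, 86 and 197 in the fed 16-week Ercc1 d/- livers. In CPM these were 0.0799, 0.289, 0.289 and 0.353 against 9.33, 3.71, 4.31 and 8.43. The groups were far apart, and the fitted difference was 26.4-fold (log2 4.72, SE 0.43, adjusted p = 2.43e-08).

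It was already 3.9 ± 0.704 CPM (SD, n = 4) in 7-week Ercc1 d/- livers, and 0.595 ± 0.372 CPM in the 104-week wild type. Under DR it fell in Ercc1 d/- livers to 2.53, 2.24, 1.69 and 1.81 CPM (log2 -1.63, SE 0.33, adjusted p = 0.00168), still above every wild-type library. The restricted wild type had 1, 0, 1 and 2 P-sites, and the genotypes on DR differed by 5.19 on the log2 scale (SE 0.55, adjusted p = 2.27e-07), a value that rests on few wild-type counts.

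The 126-position ORF starting at 14 (ENSMUST00000211946_14_139) had no single closest gene row and a similar order of levels. It had 3, 0, 5 and 3 P-sites in the fed 16-week wild type and 88, 141, 56 and 61 in fed 16-week Ercc1 d/- livers, with no overlap (log2 5.01, SE 0.55, adjusted p = 4.81e-07). In CPM the Ercc1 d/- groups were 5.72 ± 1.25 at 7 weeks, 4.81 ± 2.47 at 16 weeks and 1.47 ± 0.771 under DR, and all 12 wild-type libraries lay at 0.459 CPM or below. The fall with DR in Ercc1 d/- livers overlapped in range (log2 -1.66, SE 0.40, adjusted p = 0.00777) and was lost without fed replicate 2 (adjusted p = 0.0519).

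**Figure D4:**
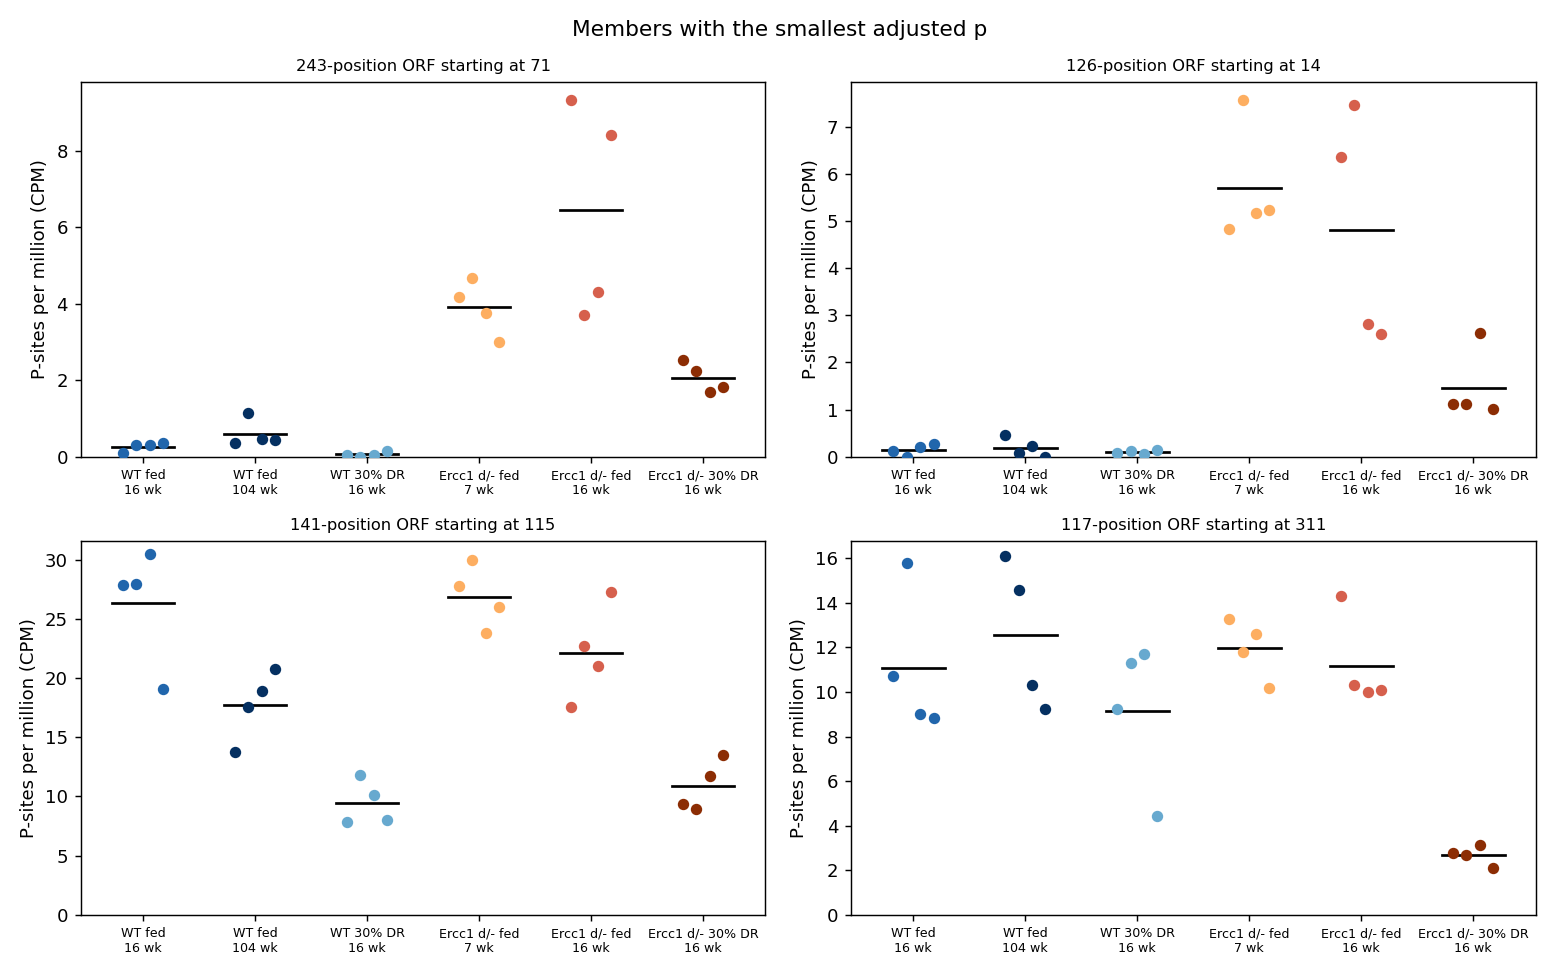
Levels in CPM of the 4 members whose identifiers are printed, by group; points are libraries and bars are group means. The 243-position and 126-position ORFs are low in all wild-type libraries, the 141-position ORF is lower under DR in both genotypes, and the 117-position ORF is low in restricted Ercc1 d/- livers at 2.1 to 3.13 CPM.

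Other members rose with the genotype by smaller factors. The 261-position ORF starting at 203, closest to A2ml1 (SD 0.277), a relative of the protease inhibitor alpha-macroglobulin, was 2.84, 2.78, 2.1 and 1.24 CPM in the fed 16-week wild type and 13.4, 5.35, 7.77 and 11.7 CPM in fed Ercc1 d/- livers (log2 2.06, SE 0.33, adjusted p = 0.000147). The groups did not overlap, and under DR the Ercc1 d/- level fell to 2.32 ± 0.855 CPM (adjusted p = 0.000148 by the same test). The 288-position ORF starting at 105, with no single closest row, was 3.4 ± 0.694 CPM against 7.42 ± 1.88 CPM in fed livers (log2 1.11, SE 0.22, adjusted p = 0.0016). On DR it was 2.7 ± 0.67 against 7.25 ± 1.07 CPM (log2 1.41, SE 0.22, adjusted p = 8.19e-05), again without overlap.

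With the naming rule limited to separate ranges and a higher group of 5 CPM or more, the rises between restricted genotypes also took in the 231-position ORF starting at 103 and the 291-position ORF starting at 252. The first was closest to Crip1 (SD 0.222), which encodes a small LIM-domain protein, and stood at 2.62, 2.37, 3.78 and 4.36 CPM in restricted wild-type livers and 5.35, 5.01, 12.3 and 7.39 CPM in restricted Ercc1 d/- livers (log2 1.21, SE 0.28, adjusted p = 0.00363). The second had no single closest row and measured 227, 203, 256 and 236 CPM against 324, 549, 517 and 549 CPM (log2 1.07, SE 0.17, adjusted p = 8.19e-05). Neither pair of groups overlapped. The mean of the 291-position ORF was 283 ± 23.1 CPM in the fed 16-week wild type, 110 ± 28.5 CPM at 104 weeks and 546 ± 86.2 CPM in fed 16-week Ercc1 d/- livers; it fell with age (log2 -1.36, SE 0.17, adjusted p = 6.63e-06).

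Among the members lower in fed Ercc1 d/- livers, the 279-position ORF starting at 171 had the largest difference. It was 8.71, 11.4, 8.58 and 9.01 CPM in the fed 16-week wild type and 0.289, 0.689, 0.301 and 0.257 CPM in Ercc1 d/- (log2 -4.60, SE 0.63, adjusted p = 6.14e-05). It had no single closest row by the rule. Cyp2b9 had the smallest SD of all gene rows (0.587) but a level outside the ratio limits, and Cyp2b19, within them, had an SD of 1.14. The 177-position ORF starting at 400 was 2031, 2183, 1238 and 1155 CPM against 198, 172, 69.3 and 212 CPM, a 10.1-fold difference (log2 -3.34, SE 0.45, adjusted p = 6.63e-05). A pair of gene rows for stearoyl-CoA desaturases, which make monounsaturated fatty acids, tracked it about equally (Scd1 with an SD of 0.139 and Scd4 with 0.163), and neither was taken as its row.

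The 228-position ORF starting at 69, closest to Leap2 (SD 0.156), was lower in Ercc1 d/- on both diets. Leap2 encodes a liver peptide that opposes ghrelin at its receptor. It was 68, 79.1, 92.6 and 99.9 CPM in the fed 16-week wild type and 19.6, 36.7, 27.2 and 29.3 CPM in fed Ercc1 d/- livers (log2 -1.59, SE 0.26, adjusted p = 0.000216), and 58.8, 38.8, 122 and 75.7 against 19.0, 22.7, 34.0 and 31.9 CPM on DR (log2 -1.46, SE 0.26, adjusted p = 0.000327). Neither comparison overlapped. The 104-week wild type, at 31.8, 47.4, 46.6 and 38.4 CPM, lay below every fed 16-week wild-type library (log2 -1.05, SE 0.25, adjusted p = 0.0109). The 117-position ORF starting at 62 was 28.9 ± 9.64 against 8.62 ± 1 CPM between fed genotypes (log2 -1.74, SE 0.36, adjusted p = 0.00291).

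Between restricted genotypes, the 101-codon ORF starting at 245 had the largest fall among those named by rule, from 15.2, 13.8, 21.8 and 24.4 CPM in the wild type to 6.56, 5.83, 5.96 and 2.82 CPM in Ercc1 d/- (log2 -1.81, SE 0.30, adjusted p = 0.000139). The 117-position ORF starting at 311 (ENSMUST00000148719_311_427) was 9.22, 11.3, 11.7 and 4.42 against 2.77, 2.67, 3.13 and 2.1 CPM (log2 -1.77, SE 0.26, adjusted p = 2.4e-05). The 159-position ORF starting at 55 was 5.39 ± 1.58 against 1.78 ± 0.641 CPM (log2 -1.63, SE 0.34, adjusted p = 0.00156). None of these had a single closest gene row, and in each the lowest wild-type library lay above the highest Ercc1 d/- library.

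Some members with a chemokine, signalling or endoplasmic reticulum gene as single closest row were lower in restricted Ercc1 d/- than in restricted wild-type livers. A 267-position ORF starting at 122 and a 279-position ORF starting at 83, both closest to Cxcl12, the chemokine ligand of CXCR4, had nearly the same counts in every library and are not independent. The first was 166, 214, 179 and 140 CPM in restricted wild-type livers and 87.9, 67, 92.9 and 101 CPM in restricted Ercc1 d/- livers (log2 -1.0, SE 0.15, adjusted p = 3.19e-05). The 216-position ORF starting at 269, closest to Gng12, a G protein gamma subunit, was 11.6 ± 2.61 against 5.48 ± 0.92 CPM (log2 -1.08, SE 0.19, adjusted p = 0.000239).

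The 174-position ORF starting at 424, closest to Serp1, which protects proteins in the stressed endoplasmic reticulum, was 27, 32.6, 65.0 and 34.9 against 21.0, 18.9, 21.0 and 22.2 CPM (log2 -0.94, SE 0.24, adjusted p = 0.00919). These did not overlap, but the call was lost without restricted wild-type replicate 3 (adjusted p = 0.0562). DR lowered it within Ercc1 d/- livers from 44.9, 41.2, 68.8 and 40.6 CPM (log2 -1.23, SE 0.25, adjusted p = 0.00167). The 267-position ORF starting at 370, closest to the calcium-binding protein gene S100a6, went the other way, from 0.994 ± 0.865 to 4.41 ± 1.87 CPM between restricted genotypes (log2 2.14, SE 0.39, adjusted p = 0.000389, and log2 2.95 without restricted wild-type replicate 3). Across all members, 24 were lower and 14 higher in Ercc1 d/- on both diets (1.85% and 1.08% of those tested), against 2.12% and 2.53% of all tested ORFs. No member was called in opposite directions, as 14 of all tested ORFs (0.0763%) were.

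DR moved members in both directions. The 279-position ORF starting at 171 rose from the 0.289, 0.689, 0.301 and 0.257 CPM of fed Ercc1 d/- livers to 12.9, 9.53, 14.4 and 20.5 CPM under DR, a 36.7-fold difference (log2 5.20, SE 0.63, adjusted p = 1.23e-05). In the wild type it stood at 9.44 ± 1.35 CPM in fed and 26.0 ± 10.7 CPM in restricted livers (adjusted p = 0.0451), a call lost without any of the 8 libraries but restricted replicate 4, with DESeq2, with no filter on low counts and with the replicate block. The 240-position ORF starting at 88, closest to Cox7a1 (SD 0.253), a subunit isoform of cytochrome c oxidase best known from muscle, rose in both genotypes. It went from 2.44, 1.27, 1.77 and 1.94 to 8.67, 3.23, 5.38 and 5.08 CPM in the wild type (log2 1.59, SE 0.31, adjusted p = 0.0013). Among Ercc1 d/- livers it went from 1.16, 2.17, 1.2 and 1.58 to 4.81, 6.46, 6.29 and 6.59 CPM (log2 1.97, SE 0.31, adjusted p = 0.000112), with no overlap in either genotype.

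Another 3 members, each without a single closest row, were named by the same rule on level and separate ranges for their rises with DR. Larger called rises fell outside it, among them that of the 120-position ORF starting at 201 in the wild type, whose ranges overlapped (log2 2.37, adjusted p = 0.00965). The 276-position ORF starting at 167 went from 106, 86.6, 51.2 and 73.3 to 265, 251, 124 and 378 CPM in the wild type (log2 1.68, SE 0.39, adjusted p = 0.00948), and also rose in Ercc1 d/- (log2 1.82, SE 0.40, adjusted p = 0.0055). The 198-position ORF starting at 10 went from 19.1, 19.1, 13.4 and 16.5 to 78.3, 47.3, 33.6 and 53.1 CPM in the wild type (log2 1.64, SE 0.35, adjusted p = 0.00431), and also rose in Ercc1 d/- (log2 1.54, SE 0.34, adjusted p = 0.00605). The 243-position ORF starting at 163 went from 2.49 ± 1.58 to 9.8 ± 2.03 CPM in Ercc1 d/- livers (log2 1.95, SE 0.42, adjusted p = 0.00418). Fed and restricted libraries were separate in all of these.

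**Figure D5:**
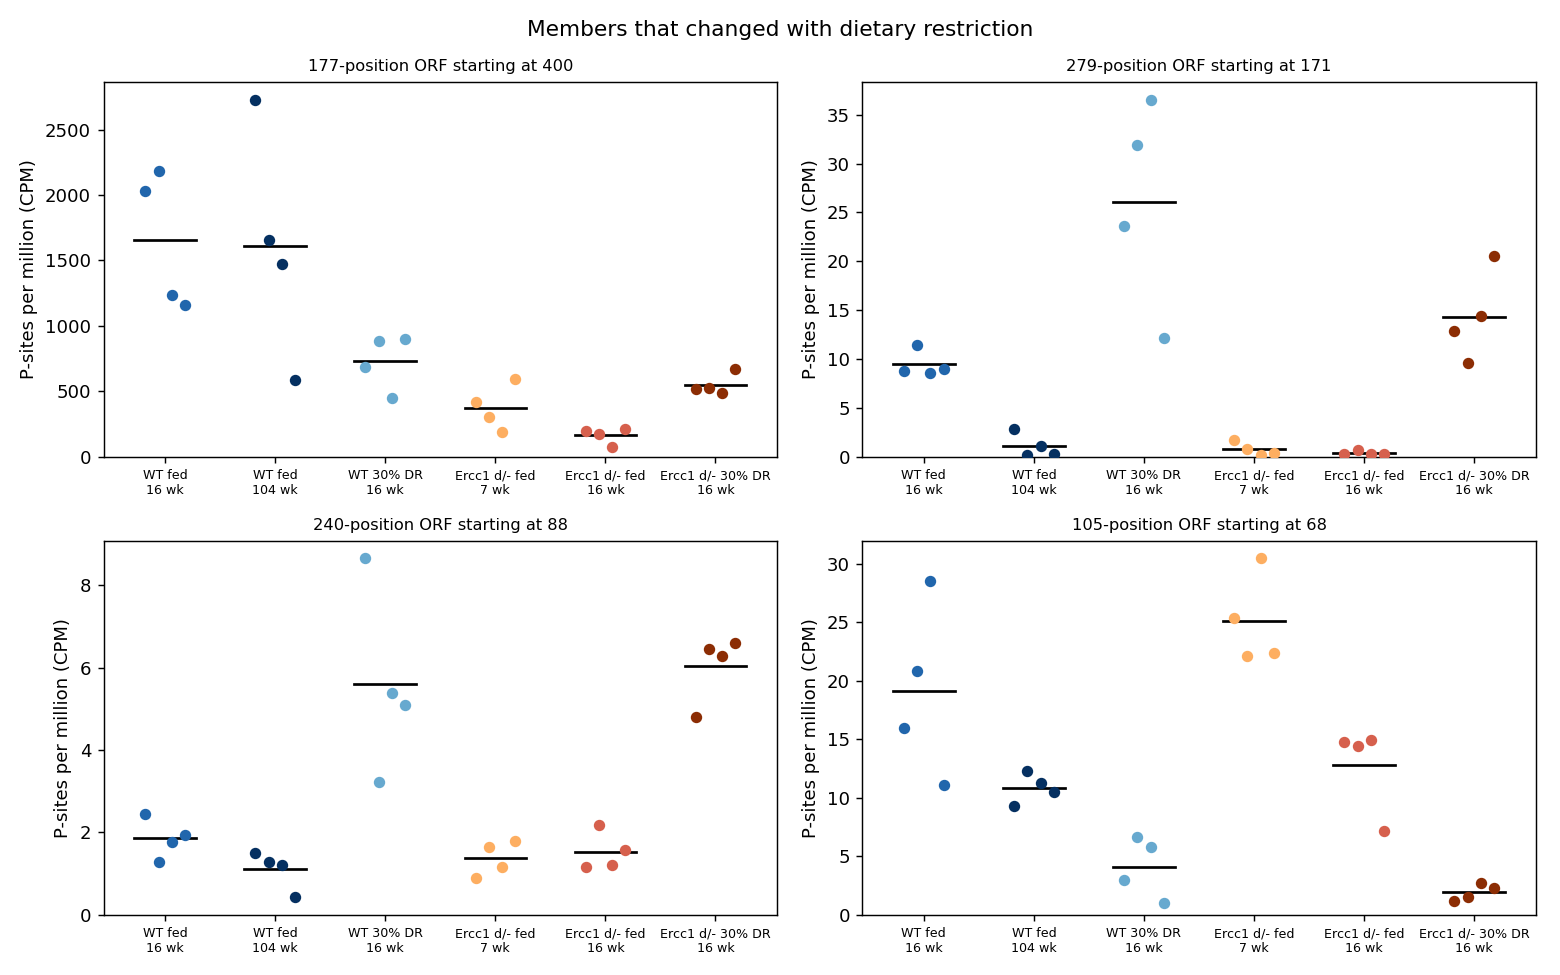
Levels in CPM of 4 members called between fed and restricted livers in at least 1 genotype, by group; points are libraries and bars are group means. The 279-position and 240-position ORFs are higher and the 105-position ORF lower under DR in both genotypes, while the 177-position ORF averages 1652 fed and 728 restricted in the wild type but 163 fed and 548 restricted in Ercc1 d/- livers.

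Several falls with DR were shared by the genotypes. The 141-position ORF starting at 115 (ENSMUST00000152147_115_255) dropped from 27.9, 28, 30.5 and 19.1 to 7.85, 11.8, 10.1 and 7.99 CPM in the wild type (log2 -1.48, SE 0.18, adjusted p = 3.5e-06), and was 22.1 ± 4.06 CPM fed and 10.9 ± 2.12 CPM restricted in Ercc1 d/- livers (log2 -1.03, SE 0.18, adjusted p = 0.000371). The 105-position ORF starting at 68 dropped in Ercc1 d/- livers from 14.8, 14.4, 14.9 and 7.14 to 1.21, 1.51, 2.73 and 2.32 CPM (log2 -2.71, SE 0.40, adjusted p = 0.000104), and was 19.1 ± 7.41 CPM fed and 4.09 ± 2.61 CPM restricted in the wild type (log2 -2.22, SE 0.38, adjusted p = 0.000589). The 264-position ORF starting at 54 dropped from 331, 358, 350 and 312 to 56.8, 66.3, 66.6 and 39.6 CPM in Ercc1 d/- livers (log2 -2.56, SE 0.51, adjusted p = 0.00325). All of these were separate between diets.

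In the wild type the 264-position ORF starting at 54 spread widely under DR, at 7.58, 111, 43.7 and 16.6 CPM against 210, 217, 253 and 258 CPM fed (log2 -2.39, SE 0.51, adjusted p = 0.00586). The 120-position ORF starting at 600 had the same order of restricted libraries, at 2.46, 56.9, 16.2 and 4.75 CPM, and was 96.3, 116, 107 and 110 CPM fed (log2 -2.42, SE 0.61, adjusted p = 0.0149). In both, restricted replicate 2 was the highest, and without it the differences were -3.37 and -3.78. Both calls were lost when only the compared libraries entered the fit.

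The 231-position ORF starting at 1 fell in the wild type from 4.08, 3.82, 18.8 and 25.6 to 1.09, 1.08, 0.802 and 1.39 CPM (log2 -3.58, SE 0.77, adjusted p = 0.00615). In Ercc1 d/- livers it was 15.6, 14.9, 2.86 and 3.81 CPM fed and 1.8, 1.36, 1.9 and 1.38 CPM restricted (log2 -2.49, SE 0.73, adjusted p = 0.0361). The fed libraries of each genotype fell into a high and a low pair, and the Ercc1 d/- call was lost without fed replicate 1 or 2, without any restricted library, with the replicate block and with the length trend removed. This ORF had no single closest row by the rule. Alas2 had the smallest SD of all gene rows (0.343) but a level outside the ratio limits, and Omd, within them, had an SD of 1.15. Over all members, 19 rose and 17 fell with DR in both genotypes (1.47% and 1.31% of those tested), against 1.59% and 1.9% of all tested ORFs. No member was called in opposite directions, as 11 of all tested ORFs (0.06%) were. The fed 16-week groups serve in both the genotype and the diet contrasts.

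Age in the fed wild type raised 1.08% of the tested members and lowered 3.09%, against 4.12% and 4.19% of all tested ORFs. The 120-position ORF starting at 201 had the largest rise, from 0.36, 0.636, 0.124 and 0.53 CPM at 16 weeks to 6.31, 8.04, 6.42 and 11.6 CPM at 104 weeks (log2 4.37, SE 0.57, adjusted p = 1.81e-05). It had no single closest row by the rule. Igkc, a B and plasma cell marker, had the smallest SD of all gene rows (0.488) but a level outside the ratio limits. The summed level of 5 B and plasma cell markers, all detected, was 1.11 to 3.66 CPM in the fed 16-week wild type and 29.6 to 86.3 CPM at 104 weeks; their part in the result was not tested. In whole liver, fewer or more cells of a type and less or more RNA per cell cannot be told apart.

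The 258-position ORF starting at 121, closest to Fcer1g (SD 0.124), the signalling chain of Fc receptors on immune cells, was 5.84, 3.82, 6.19 and 4.6 CPM at 16 weeks and 13, 6.96, 8.99 and 8.31 CPM at 104 weeks (log2 0.84, SE 0.24, adjusted p = 0.0279). The call was lost without 16-week replicate 2 or 4 or 104-week replicate 1 (adjusted p up to 0.121). Fed 16-week Ercc1 d/- livers were also higher, at 11.8, 9.96, 9.93 and 7.91 CPM (log2 0.94, SE 0.24, adjusted p = 0.0112), a call lost without wild-type replicate 2 (adjusted p = 0.0507). The 8 Kupffer cell and macrophage markers summed to 224 to 260 CPM in the fed 16-week wild type, 310 to 488 CPM at 104 weeks and 516 to 596 CPM in fed 16-week Ercc1 d/- livers, and their part in these results was not tested.

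The 273-position ORF starting at 211 went from 9.34 ± 1.54 to 16.8 ± 2.22 CPM with age (log2 0.84, SE 0.19, adjusted p = 0.00645). The falls were led by the 279-position ORF starting at 171, at 2.87, 0.135, 1.06 and 0.217 CPM at 104 weeks (log2 -3.33, SE 0.59, adjusted p = 0.00113), whose difference was -4.34 without 104-week replicate 1. The 101-codon ORF starting at 141 went from 58.2 ± 21.7 to 19.4 ± 9.04 CPM (log2 -1.57, SE 0.34, adjusted p = 0.00655), a call lost when only the compared libraries entered the fit. The 192-position ORF starting at 765 went from 8.06 ± 2.67 to 3.16 ± 1.83 CPM (log2 -1.37, SE 0.36, adjusted p = 0.0159), lost in that fit and without 16-week replicate 4 (adjusted p = 0.0647). The 267-position ORF closest to Cxcl12 went from 150 ± 21.2 to 92.2 ± 15.4 CPM (log2 -0.70, SE 0.15, adjusted p = 0.00314).

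From 7 to 16 weeks in fed Ercc1 d/- livers only 4 members passed, and these calls were fragile. The 189-position ORF starting at 88, closest to Wfdc21, which encodes a small secreted protein with a WAP domain, was 384, 250, 416 and 291 CPM at 7 weeks and 734, 533, 590 and 617 CPM at 16 weeks (log2 0.88, SE 0.19, adjusted p = 0.0335). The 222-position ORF starting at 73 went from 5.64, 5.88, 6.95 and 4.8 to 3.4, 2.91, 2.86 and 2.01 CPM (log2 -1.07, SE 0.23, adjusted p = 0.0295). The 108-position ORF starting at 15 went from 46.0, 43.8, 44.2 and 43.1 to 29.7, 14.8, 26.3 and 28.8 CPM (log2 -0.83, SE 0.18, adjusted p = 0.0335). No groups overlapped. The first call was lost without any of the libraries but 16-week replicate 2, the second without any but 7-week replicate 4 and 16-week replicate 1, and the third without any of the 8 and with the length trend removed; the highest adjusted p was 0.15. The other member that rose was the 120-position ORF starting at 201, from 0.448 ± 0.214 to 2.86 ± 1.36 CPM, beside B and plasma cell marker sums of 1.51 to 2.93 and 4.71 to 15.5 CPM (log2 2.65, SE 0.57, adjusted p = 0.0335). This call was lost without any of the libraries but 16-week replicate 3 and with the replicate block.

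In the interaction, 6 members passed. The 117-position ORF starting at 311 was 11.2 ± 2.1 CPM in fed and 2.67 ± 0.425 CPM in restricted Ercc1 d/- livers, and 11.1 ± 3.24 and 9.17 ± 3.35 CPM in the wild type (interaction log2 -1.78, SE 0.35, adjusted p = 0.0108). It was called in every fit that left out a single library, with an adjusted p of at most 0.0343. The 177-position ORF starting at 400 rose with DR in Ercc1 d/- livers from 163 ± 64.6 to 548 ± 80.5 CPM (log2 1.75, SE 0.42, adjusted p = 0.0113). In the wild type its fed mean was 1652 ± 531 CPM and its restricted mean 728 ± 210 CPM (log2 -1.18, SE 0.42, adjusted p = 0.075), and the responses differed (interaction 2.93, SE 0.59, adjusted p = 0.0229). That call was lost without fed wild-type replicate 1 or restricted wild-type replicate 3 (adjusted p up to 0.0528).

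The 279-position ORF starting at 171 rose more in Ercc1 d/- livers (interaction 3.73, SE 0.78, adjusted p = 0.0254), a call lost without fed Ercc1 d/- replicate 1, 3 or 4 (adjusted p up to 0.0682). The 69-position ORF starting at 78 was 0.626 ± 0.168 and 0.899 ± 0.365 CPM in fed and restricted wild-type livers, and 1.32 ± 0.28 and 0.317 ± 0.0897 CPM in Ercc1 d/- (interaction -2.55, SE 0.58, adjusted p = 0.0329), a call lost in 10 of the 16 fits that left out a library (adjusted p up to 0.0823). The 189-position ORF starting at 88 went from 618 ± 84.6 to 321 ± 47.7 CPM in Ercc1 d/- and from 535 ± 111 to 629 ± 113 CPM in the wild type (interaction -1.18, SE 0.27, adjusted p = 0.0378), a call lost in 12 of the 16 fits that left out a library, with the replicate block and with the length trend removed. The 120-position ORF starting at 201 had an interaction of -3.26 (SE 0.76, adjusted p = 0.0403), beside B and plasma cell marker sums of 2.92 to 28.6 CPM in restricted wild-type and 4.16 to 12.2 CPM in restricted Ercc1 d/- livers, whose part was not tested. It was lost in 12 of the 16 fits that left out a library (adjusted p up to 0.116), with no filter on low counts, with the replicate block and with only the compared libraries fitted.

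Of the 74 members with a single closest row, 44 had that row in a list of genes grouped broadly by role. Some genes have a role other than the name of their list, as Serp1 in the lipid list. Mrpl34 and Mrps21, in the mitochondrial import and cristae list, are also such genes. A count therefore describes the genes named and not the function in the list's name. The lists are short, and their counts are to be set beside the shares of all tested ORFs called: 8.54% higher and 8.43% lower between restricted genotypes, 5.51% and 5.3% with DR in the wild type, 4.7% and 5.08% with DR in Ercc1 d/-, and 4.12% and 4.19% with age. Of 4 members in the secreted protein list, 1 was higher (closest to Tff3) and 2 were lower (closest to Apoc1 and Leap2) in Ercc1 d/- on DR. Their values are given above. Of 5 in the immune list, 2 rose with age in the wild type (closest to Cxcl1 and Fcer1g) and 2 fell, the pair closest to Cxcl12. The Cxcl1 member held 205 P-sites over the 24 libraries and rests on few counts. It was 0.23 ± 0.111 CPM at 16 weeks and 2.53 ± 1.37 CPM at 104 weeks. Its SD to the Cxcl1 row, 0.572, was the highest of the 74. The 2 members in the ribosomal protein list, closest to Rps21 and Rps29, both rose with DR in the wild type. Only the Rps29 member passed in Ercc1 d/-. The Rps29 member, 168 positions long, went from 33.3, 36.8, 29.9 and 38.2 to 68.2, 63.2, 84.2 and 79.2 CPM in the wild type, without overlap (log2 1.10, SE 0.24, adjusted p = 0.00389). In Ercc1 d/- livers it was 31.6 ± 14 fed and 53.8 ± 7.01 CPM restricted (log2 0.76, SE 0.24, adjusted p = 0.0387), a call lost without any of fed replicates 1, 2 and 4 or restricted replicates 1, 2 and 4 and when only the compared libraries were fitted.

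Of 4 members in the list of respiratory chain subunits and assembly factors, 1 rose and 1 fell with DR in each genotype. The member that rose was the one closest to Cox7a1, and the one that fell was closest to Smim4, a small mitochondrial membrane protein. The latter went from 15.9, 16.6, 16.2 and 14.8 to 9.02, 6.94, 7.22 and 5.88 CPM in the wild type (log2 -1.12, SE 0.17, adjusted p = 7.67e-05) and to 10.3, 9.05, 8.91 and 11.6 CPM at 104 weeks (log2 -0.67, SE 0.17, adjusted p = 0.0136), with no overlap. In Ercc1 d/- livers it was 15.1 ± 2.88 and 10.2 ± 2.28 CPM (log2 -0.58, SE 0.17, adjusted p = 0.028), lost without fed replicate 3 or 4 or restricted replicate 1, 2 or 3, with only the compared libraries fitted and with the length trend removed. Of 5 members in the mitochondrial import and cristae list, 2 were lower in Ercc1 d/- on DR, those closest to Mrpl34 and Mrps21, both subunits of the mitochondrial ribosome. The Mrps21 member was 27.1 ± 7.57 against 18.1 ± 1.67 CPM (log2 -0.59, SE 0.15, adjusted p = 0.00813), lost with only the compared libraries fitted and with the length trend removed.

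Of 4 members in the metallothionein and redox list, the one closest to Msrb1, a selenoprotein that repairs oxidised methionine, was lower with DR in Ercc1 d/- livers, from 253, 258, 239 and 298 to 123, 114, 131 and 162 CPM, without overlap (log2 -0.98, SE 0.15, adjusted p = 6.21e-05). The members closest to Mt1 and Mt2, which bind zinc and copper, varied too much within groups for a call. The Mt1 member was 7.2, 49.1, 13.3 and 33.0 CPM in the fed 16-week wild type and 455, 512, 521 and 6.29 CPM at 104 weeks, and the Mt2 member was 3.36, 47.5, 7.71 and 16.3 against 825, 738, 828 and 6.65 CPM (log2 3.87 and 5.01, SE 1.23 and 1.59, adjusted p = 0.0605 and 0.0593). In both, 104-week replicate 4 stood with the young livers.

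Of 10 members in the cytoskeleton, trafficking and calcium list, 1 was higher and 4 were lower in Ercc1 d/- on DR. The higher was the S100a6 member and the lower were those closest to Dynll1, Dynlrb1, Gng12 and Smim11. The member closest to Dynll1, which encodes a dynein light chain, rose with DR in the wild type. It went from 9.11, 9.02, 8.41 and 5.21 to 27.3, 12.0, 27.2 and 17.2 CPM, without overlap (log2 1.39, SE 0.25, adjusted p = 0.000595 by edgeR). In Ercc1 d/- livers it was 8.15 ± 1.35 fed and 9.14 ± 2.66 CPM restricted. The difference between these responses did not pass (interaction -1.23, SE 0.35, adjusted p = 0.111). In the RNA processing and transcription list, edgeR called 0 of 3 members in each of the 7 contrasts, with 2 at an unadjusted p under 0.05 between restricted genotypes. Of 4 members in the lipid list, those closest to Serp1, the endoplasmic reticulum protein described above, and to Dpm2, a regulatory subunit of dolichol-phosphate mannose synthase, were lower in Ercc1 d/- on DR. Of these only the Serp1 member fell with DR in Ercc1 d/- livers. Of 4 in the growth and stress list, the Dynll1 member, also in the cytoskeleton list, was the one called with DR in the wild type and between restricted genotypes, and the one closest to Cks1b, a cell cycle kinase subunit, fell with DR in Ercc1 d/-. Over all 74, 4 were higher and 21 lower between restricted genotypes, beside the 8.54% and 8.43% of all tested ORFs. Of the 1222 tested members without a single closest row, 47 were higher and 160 lower. The 74 each held at least 200 P-sites, which the 1222 need not.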

How the data were processed

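Ribosome footprints of 24 livers were deposited by the authors as whole P-site counts per ORF and as counts per gene, not normalized. Per the submitters' processing notes, GRCm38.p6, Trimmomatic 0.39, cutadapt 3.4, Bowtie2 2.4.2, STAR 2.7.0f and 2.7.8a, and featureCounts from Subread 1.6.4 were used, with no order given; how ORFs were chosen is not given in the sources used here. Whether a P-site on overlapping transcripts was counted in several ORFs is likewise not given.

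Counts were tested with edgeR 4.0.16 in R 4.3.3: filterByExpr over 6 groups, TMM, glmQLFit (robust) with 1 term per group over all 24 libraries (18 residual degrees of freedom), glmQLFTest, two-sided, Benjamini-Hochberg over 18344 ORFs, threshold 0.05. CPM are P-sites per 1000000 P-sites of a library on the ORFs that passed the filter, with each total multiplied by its TMM factor. These factors ran from 0.875 to 1.128. Marker CPM were scaled in the same way from the gene counts. The code was tested on simulated data. Alternatives were DESeq2 1.42.0, no filter, a replicate block, the compared libraries only and each library left out, and, added after the data were seen, a length trend (lowess span 0.3) removed per library. ORFs named are the 5 with the most P-sites and, per contrast, the 3 largest called rises and falls among members whose higher group averaged 5 CPM or more and whose 2 groups were separate in range (range was not judged in the interaction); the interaction's other members are named because they are few. Identifiers are given for the 2 that rose and 2 that fell with the smallest adjusted p. Members called in at least 2 of the 6 pairwise contrasts whose single closest gene row was in a gene list were added after their values were seen. Those of Mt1 and Mt2 were added likewise. Other members called as often had their row in no list and were not added, among them those closest to Wfdc17 and Spink1. The members and the gene lists were chosen with earlier results of these data known. Same-numbered livers had a median r of 0.005254 (60 pairs, -0.1768 to 0.2209), against 0.0005723 in 180 other pairs. Numbers were therefore not taken as pairs, though a shared batch was not tested.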

Additional observations from a re-analysis of the deposited data

Results flagged for a closer look

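Single libraries stood apart in 23 of 282 groups of 4, judged by the gap to the nearest library against Dixon's 95% critical value; chance marks about 1 in 20 groups. In fed 16-week wild-type livers, replicate 2 had 11.4 CPM of the 279-position ORF starting at 171 and replicate 4 had 249 CPM of the 291-position ORF starting at 252. At 104 weeks, replicate 2 had 1.15 CPM of the 243-position ORF starting at 71, replicate 3 had 51.4 CPM of the 168-position ORF closest to Rps29, and replicate 4 had 6.29 and 6.65 CPM of the members closest to Mt1 and Mt2. In restricted wild-type livers, replicate 2 had 7.85 CPM of the 222-position ORF starting at 73 and 8.44 CPM of the 243-position ORF starting at 163.

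In 7-week Ercc1 d/- livers, replicate 1 had 24.6 CPM of the Mt2 member, replicate 2 had 7.58 CPM of the 126-position ORF starting at 14, and replicate 4 had 0.128 CPM of the 120-position ORF starting at 201. In fed 16-week Ercc1 d/- livers, replicate 1 had 14.3 CPM of the 117-position ORF starting at 311, 5.64 CPM of the 231-position ORF starting at 103 and 298 CPM of the Mt2 member. Replicate 2 had 0.689 CPM of the 279-position ORF starting at 171, and replicate 3 had 68.8 CPM of the 174-position ORF closest to Serp1. Replicate 4 had 31.1 CPM of the 101-codon ORF starting at 141 and 7.14 CPM of the 105-position ORF starting at 68.

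In restricted Ercc1 d/- livers, replicate 1 had 3.3 CPM of the 120-position ORF starting at 201, 4.81 CPM of the 240-position ORF starting at 88 and 324 CPM of the 291-position ORF starting at 252. Replicate 3 had 2.62 CPM of the 126-position ORF starting at 14, and replicate 4 had 13.1 CPM of the 267-position ORF closest to Dynll1.

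The interaction test called 6 members, 2 upward and 4 downward (0.154% and 0.309% of those tested), against 0.403% and 0.251% of all tested ORFs. Only the call of the 117-position ORF starting at 311 was kept in every fit that left out a single library. The log2 differences were -1.78 for the 117-position ORF starting at 311, 2.93 for the 177-position ORF starting at 400, 3.73 for the 279-position ORF starting at 171, -2.55 for the 69-position ORF starting at 78, -1.18 for the 189-position ORF starting at 88 and -3.26 for the 120-position ORF starting at 201.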

How the results depend on the processing

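Over 106 results on single members, 1426 refits kept the direction; 1198 kept the call and 228 lost it. With only the compared libraries fitted, 123 members were called between fed genotypes, 19 for age in Ercc1 d/- and 80 between restricted genotypes, against 73, 4 and 232 in the fit of all libraries. Over all tested ORFs the same change took the counts from 1677 to 3014, from 87 to 585 and from 3114 to 1100. DESeq2 called 7 for age in Ercc1 d/- and 13 in the interaction. Over all tested ORFs it called 116 higher and 96 lower for age in Ercc1 d/-, against 52 and 35 with edgeR. In the interaction it called 189 and 129 of all tested ORFs, against 74 and 46. With the replicate number as a block, the 7 counts were 65, 53, 3, 97, 137, 227 and 6 in the order of the report. Over all tested ORFs the block gave 890 higher and 711 lower, 667 and 752, 44 and 33, and 880 and 944. The later contrasts gave 764 and 894, 1517 and 1471, and 79 and 42. Of the 24 libraries, 10 correlated best with a library of their own number. Whether same-numbered livers shared a batch was not tested. The median share of member P-sites over the libraries was 1.89%, and 0.178% with a limit of 51 codons, 1.33% without the 5 members with the most P-sites and 0.599% over the members with a single closest row, the last chosen after seeing the data.

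Leaving out a library gave 42 to 52 members between fed genotypes, 34 to 57 for age in the wild type, 0 to 2 for age in Ercc1 d/-, 56 to 115 for DR in the wild type, 94 to 129 for DR in Ercc1 d/-, 174 to 242 between restricted genotypes and 2 to 7 in the interaction. Moves past 1.5 times came without fed 16-week wild-type replicates 2 (48) and 4 (42) and fed Ercc1 d/- replicates 1 (43) and 4 (46) between fed genotypes, and without fed 16-week wild-type replicate 4 (34) for age. They came without fed wild-type replicate 2 (56) and restricted replicate 4 (60) for DR in the wild type, and without fed replicate 2 (95) and restricted replicate 1 (94) for DR in Ercc1 d/-. In the interaction they came without fed wild-type replicates 1 (2) and 4 (3) and fed Ercc1 d/- replicates 1 (2), 3 (3) and 4 (3). Over all tested ORFs these fits called 55 and 26, 49 and 23, 47 and 20, 49 and 33, and 49 and 32 upward and downward. For age in Ercc1 d/- edgeR called 0 without 7-week replicates 1, 2 or 3 or 16-week replicate 4 (93, 94, 78 and 91 at an unadjusted p under 0.05), 2 without 7-week replicate 4, and 1 without each other 16-week library. Where no member was called, the calls over all tested ORFs were 13 higher and 13 lower, 10 and 14, 5 and 9, and 11 and 13. In the other contrasts, the fits with the fewest members also had calls over all tested ORFs, higher and lower, as follows. They were 628 and 516 between fed genotypes and 443 and 526 for age in the wild type. With DR they were 565 and 683 in the wild type and 557 and 628 in Ercc1 d/-. Between restricted genotypes they were 1509 and 1361. The fit of all libraries gave 922 and 755, 756 and 769, 1010 and 972, 862 and 931, and 1567 and 1547. Depth limits what could be seen: 942 members were too low to test.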
